A study of Mus musculus with 15 samples.

Results

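The 35 genes described here encode 13 factors that build peroxisomes and 22 peroxisomal enzymes and transporters. They were chosen by function, as named genes of peroxisome biogenesis and metabolism, out of 45804 genes measured in mouse cecum. The study asked how depletion of the gut microbiota by antibiotics changes gene expression in this tissue. Cecal RNA of 7 AIMD mice (antibiotic-induced microbiome depletion) and 8 vehicle-treated mice was sequenced. All 15 mice were C57BL/6, carried no engineered allele and had a labelled age of 20 weeks. AIMD mice were gavaged for 30 days with 4 antibiotics (vancomycin, neomycin, metronidazole and ampicillin) and the antifungal amphotericin B, and vehicle mice were given water by the same route for the same time. Each cecum was emptied and frozen whole, so the RNA came from epithelium, muscle, immune cells and nerves together.

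Peroxisomes are small organelles bounded by a single membrane. They shorten very long and branched fatty acids, begin the synthesis of ether phospholipids and break down the hydrogen peroxide that their oxidases release. Their enzymes are made in the cytosol and carried in by the peroxins (Pex proteins): receptors bind a targeting signal on the cargo, a membrane complex docks them, and a set of ubiquitin ligases and ATPases returns the receptors to the cytosol. In many tissues the genes for peroxisomal fatty acid oxidation are targets of the fatty acid sensor PPARα, and the gut epithelium uses fatty acids of bacterial and dietary origin.

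Between 4372400 and 18108530 reads per mouse fell on genes. The median was 11244597 reads in AIMD mice and 7855349 in vehicle mice. FPKM are the reads on a gene scaled to its length and to a depth value set for each mouse. Epithelial markers summed to 4758 to 7872 FPKM in AIMD mice and to 4633 to 6724 FPKM in vehicle mice. Of these 9 markers, 2 were higher and 1 lower in AIMD. Smooth muscle markers summed to 212 to 808 FPKM in AIMD mice and 514 to 3006 FPKM in vehicle mice, where 1 of 7 passed as lower (Tagln) and all 7 log2 fold changes were negative, from -1.17 to -0.58. The 3 testable markers of enteric neurons and glia were all lower in AIMD mice, with a summed level of 2.20 to 3.69 FPKM against 3.27 to 59.0 FPKM. Within the markers of mature colonocytes, goblet cells and stroma, 1 was higher and 1 lower in each list, of 7, 6 and 6 tested (log2 fold changes of AIMD over vehicle in parentheses): Ceacam1 (0.90) and Aqp8 (-0.93), Tff3 (1.14) and Muc2 (-0.77), and Col3a1 (0.68) and Lum (-0.96). Of 9 immune markers, Lyz2 (1.24) and Cd68 (0.48) were higher and Cd79b (-1.39) was lower, with summed levels of 65.3 to 258 FPKM in AIMD mice and 57.8 to 124 FPKM in vehicle mice. Vehicle replicate 8 stood apart: it had the fewest reads, the sums of 3006 FPKM for muscle and 59.0 FPKM for nerve belonged to it (the other vehicle mice reached at most 1366 and 18.7 FPKM), and it was the lowest vehicle mouse for 14 of the 35 peroxisomal genes. The part that these shifts in tissue had in the results below was not tested. In whole tissue, fewer cells of a type and less RNA per cell cannot be told apart.

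Peroxisomal genes moved in both directions under AIMD, and mostly by small steps. Of the 34 genes with enough signal to be tested, 6 rose and 8 fell under AIMD by limma at a Benjamini-Hochberg adjusted p under 0.05, and 20 did not pass. These are 17.6% and 23.5% of the tested peroxisomal genes. Among all 11971 genes tested, 19.4% were higher and 16.6% were lower, so the peroxisomal genes passed about as often as genes in general. Their median log2 fold change was -0.09, beside 0.01 over all genes tested. Here and below, fold changes are AIMD minus vehicle on the log2(FPKM + 0.5) scale, which understates changes of low genes. The groups did not overlap for 1 peroxisomal gene, Phyh, which was lower in AIMD, whereas 3.30% of all genes were lower without overlap. No peroxisomal gene was higher without overlap, against 5.26% of all genes. Of the 21 enzymes and transporters tested, 3 were higher and 6 lower, or 14.3% and 28.6%. Without vehicle replicate 8, 2 biogenesis factors and 3 enzymes were higher and 3 and 6 were lower.

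**Figure D1:**
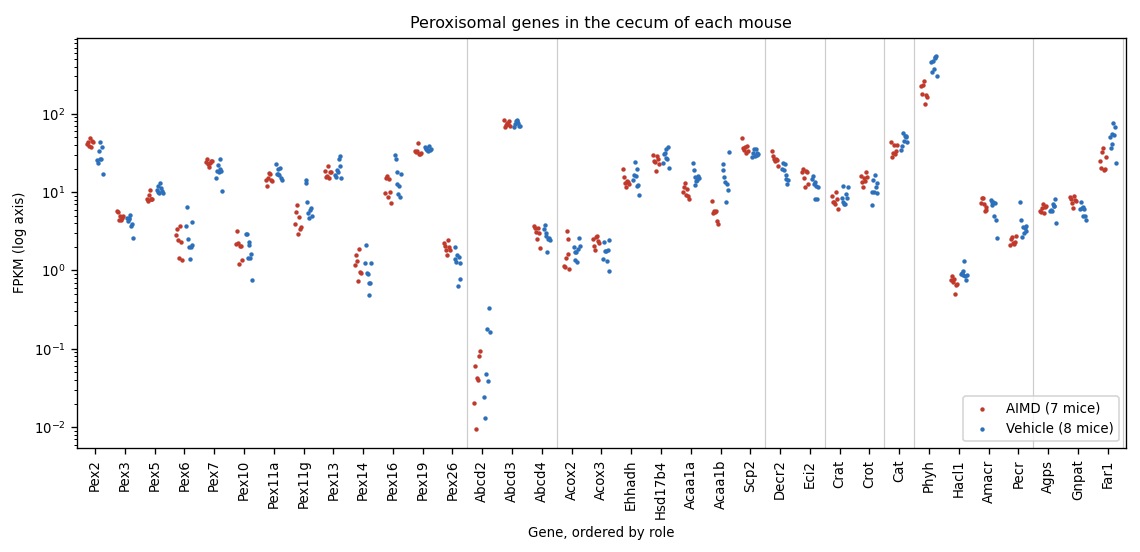
Level of each of the 35 genes in each of the 15 mice, in FPKM on a log axis, with genes ordered by role and vertical lines between roles. A value of 0 is not drawn, which concerns 1 vehicle mouse for Abcd2. Phyh spans 133 to 261 FPKM in AIMD mice and 305 to 542 FPKM in vehicle mice and is the gene whose points separate.

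The genes differed widely in level. Phyh, at a mean of 439 FPKM in vehicle mice, was the most abundant of them per length, followed by Abcd3 at 75.5 FPKM and Far1 at 50.4 FPKM. The ranges of Abcd3 (68.5 to 83.3 FPKM) and Far1 (23.7 to 76.9 FPKM) overlapped in vehicle mice, and neither reached the lowest vehicle value of Phyh. Hacl1 at 0.939 FPKM and Abcd2 at 0.0992 FPKM were the least abundant.

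**Figure D2:**
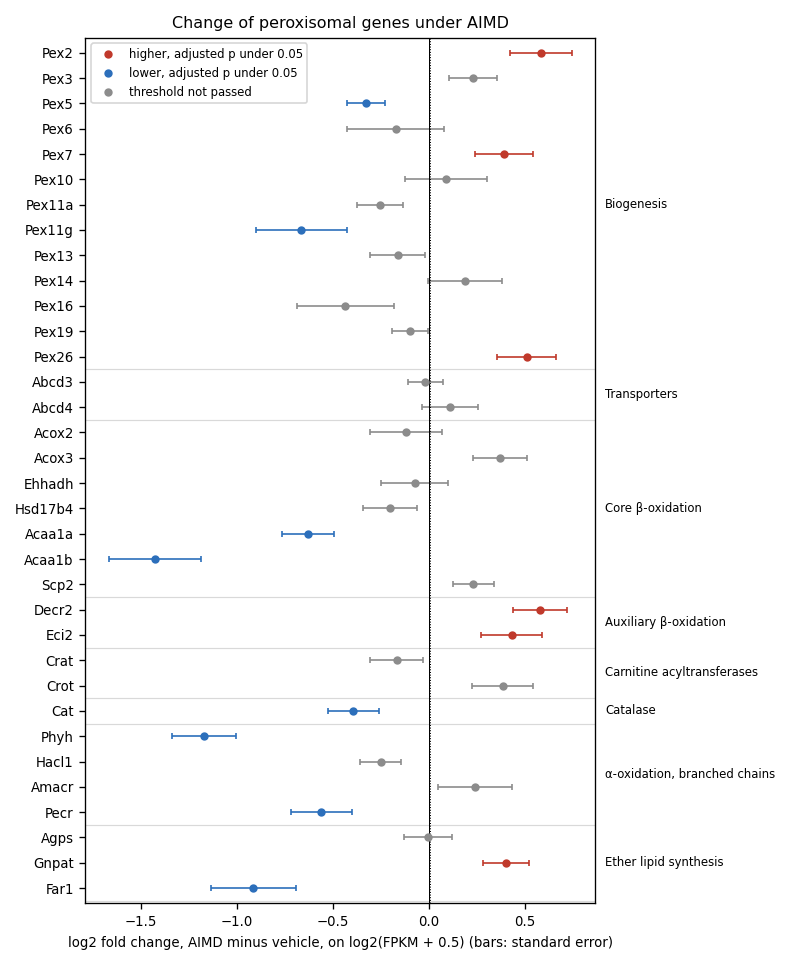
Log2 fold change of the 34 tested genes, AIMD minus vehicle on the log2(FPKM + 0.5) scale, grouped by role, with bars for the standard error. Red marks the 6 genes that were higher and blue the 8 that were lower at an adjusted p under 0.05, grey marks the other 20, and the dotted line is the median of all genes tested, at 0.01.

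Among the 13 biogenesis factors, 3 were higher in AIMD, 2 were lower and 8 did not pass. The shares of 23.1% higher and 15.4% lower were near those of all genes tested, 19.4% and 16.6%. The median log2 fold change of the 13 factors was -0.10. Pex2, one of the membrane ubiquitin ligases that recycle the import receptor (chromosome 3, 5560188 to 5576239, GRCm38), had 37.9 to 48.9 FPKM in AIMD mice with a median of 43.3, and 17.1 to 44.1 FPKM in vehicle mice with a median of 26.6. The lowest AIMD mouse was above 7 of the 8 vehicle mice. The change was 0.58 ± 0.16 (SE; adjusted p = 0.0102). Pex26, which anchors the receptor-extracting ATPases to the membrane (chromosome 6, 121183667 to 121198837), was present at low level, with 1.59 to 2.48 FPKM and a median of 1.98 in AIMD mice and 0.643 to 2.00 FPKM and a median of 1.34 in vehicle mice. Its lowest AIMD mouse also exceeded 7 vehicle mice, and the change was 0.51 ± 0.15 (adjusted p = 0.0166). The lowest count of reads on Pex26 was 19, in vehicle replicate 5.

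The receptors for the 2 kinds of import signal moved in opposite directions. Pex5, the receptor for the carboxy-terminal signal that most matrix enzymes carry (chromosome 6, 124396816 to 124415067), fell. It had 7.68 to 10.5 FPKM in AIMD mice with a median of 8.08, and 9.64 to 13.0 FPKM in vehicle mice with a median of 10.4. In 6 of 7 AIMD mice it was under the lowest vehicle mouse, and the change was -0.33 ± 0.10 (adjusted p = 0.0164). Pex7, the receptor for the amino-terminal signal found on the ketoacyl-CoA thiolases, Phyh and Agps (chromosome 10, 19853900 to 19907689), had 20.8 to 26.4 FPKM and a median of 24.0 in AIMD mice, and 10.5 to 26.3 FPKM and a median of 18.7 in vehicle mice. The ranges overlapped at the top, where 2 of the 8 vehicle mice stood within the AIMD range, and the change of 0.39 ± 0.15 had an adjusted p of 0.0496. This call sat at the threshold and was lost when any one of 12 of the 15 mice was left out, with adjusted p values up to 0.0855.

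The Pex11 proteins elongate and divide peroxisomes. Pex11g (chromosome 8, 3457105 to 3467680) had 2.94 to 6.94 FPKM in AIMD mice with a median of 3.90, and 4.63 to 14.2 FPKM in vehicle mice with a median of 6.09. The highest values, 14.2 and 12.9 FPKM, were those of vehicle replicates 1 and 2, and 4 of the 7 AIMD mice were under all vehicle mice. The change of -0.67 ± 0.24 (adjusted p = 0.0360) was lost when any one of 7 mice was left out. Of the exon bases of Pex11g, 41.1% lie opposite the antisense gene Gm44775, for which no level was available. The library kit marks strand, but the setting of the counting is not given in the sources used here. Pex11a, its relative, did not pass, at 11.8 to 17.5 FPKM in AIMD mice and 14.1 to 22.7 FPKM in vehicle mice (-0.26 ± 0.12, adjusted p = 0.0973). Pex11g made up 14.4 to 32.1% of the summed FPKM of Pex11a and Pex11g in AIMD mice and 21.5 to 42.8% in vehicle mice, with overlapping ranges.

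The other biogenesis factors did not pass. Pex3 and Pex19, which insert membrane proteins with Pex16, had log2 fold changes of 0.23 and -0.10, and Pex16 had -0.44 ± 0.25 (adjusted p = 0.187) with a wide spread of 8.77 to 29.8 FPKM in vehicle mice. Pex13 and Pex14, the docking site for the receptors, had -0.16 and 0.19. Pex6, one of the ATPases, had -0.17, and Pex10, a partner ligase of Pex2, had 0.09 ± 0.21 (adjusted p = 0.771). Pex14 was low (0.489 to 2.10 FPKM), with 28.3% of its exon bases opposite the antisense gene Gm17029, which did not exceed 0.117 FPKM.

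The transporters did not pass. Abcd3, a transporter for long and branched acyl-CoAs, had 67.9 to 82.3 FPKM in AIMD mice and 68.5 to 83.3 FPKM in vehicle mice, nearly the same span, with a change of -0.02 ± 0.09 (adjusted p = 0.892). Abcd4, a relative that works in cobalamin transport, had 0.11 ± 0.15. Abcd2 reached at most 0.328 FPKM on 0 to 12 reads and was left out by the filter on low values.

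Of the 7 genes of core β-oxidation, 2 fell, the ketoacyl-CoA thiolase genes Acaa1a and Acaa1b, which share sequence, and 5 did not pass. The 2 are 28.6% of the 7 genes, while 16.6% of all genes tested were lower. The oxidase Acox2, which acts on branched chains and bile acid precursors, had -0.12 ± 0.19. Acox3 had 1.84 to 2.75 FPKM in AIMD mice and 0.997 to 2.41 FPKM in vehicle mice, and its change of 0.37 ± 0.14 stood on the threshold (adjusted p just above 0.05). The hydratase and dehydrogenase proteins Ehhadh and Hsd17b4 had -0.08 ± 0.17 and -0.20 ± 0.14. Scp2, whose long form is a thiolase for branched chains, had 31.4 to 49.0 FPKM in AIMD mice and 28.0 to 36.0 FPKM in vehicle mice (0.23 ± 0.11, adjusted p = 0.0977), and 29.7% of its 50-base stretches also occur in the pseudogene Scp2-ps2.

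Acaa1a and Acaa1b are neighbouring genes on chromosome 9 (119339676 to 119350299 on the plus strand and 119148023 to 119157093 on the minus strand) that encode the thiolases which release acetyl-CoA. Their coding sequences are both 1275 bases long and are identical at 1231 positions (96.5%), with a longest shared run of 327 bases, so that many 50-base reads cannot tell them apart. Of the 50-base stretches, 30.5% of those of Acaa1b occur in Acaa1a, and 12.4% of those of Acaa1a occur in Acaa1b. How reads that match both were counted is not given in the sources used here. The 60 coding bases where they differ most, bases 259 to 318 of both, are shown to make visible where reads can separate them. Capitals mark the 11 positions that differ. The stretch spans an intron in both genes, at chr9:119341912-119342775 (plus strand) and chr9:119155750-119156597 (minus strand) of GRCm38.
Acaa1a: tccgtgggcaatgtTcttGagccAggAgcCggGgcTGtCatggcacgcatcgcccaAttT
Acaa1b: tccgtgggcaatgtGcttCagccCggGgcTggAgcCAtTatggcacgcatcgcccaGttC

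Acaa1a had 8.17 to 13.0 FPKM in AIMD mice with a median of 9.91, and 12.3 to 23.2 FPKM in vehicle mice with a median of 15.4. In 6 of 7 AIMD mice it was under every vehicle mouse, and the change was -0.63 ± 0.14 (adjusted p = 0.00212). Of the exon bases of Acaa1a, 6.57% lie opposite Myd88, which reached 18.3 FPKM in its highest mouse. Acaa1b had 3.94 to 7.77 FPKM in AIMD mice with a median of 5.57, and 7.53 to 32.6 FPKM in vehicle mice with a median of 14.6. The groups touched at 1 mouse each, and the spread was far wider among vehicle mice. The change was -1.43 ± 0.24 (adjusted p = 0.000286), with a mean of 5.49 ± 1.24 FPKM (SD, n = 7) in AIMD mice and 16.8 ± 7.98 FPKM (SD, n = 8) in vehicle mice. Acaa1b made up 30.7 to 43.9% of the summed FPKM of both genes in AIMD mice (median 32.5%) and 35.0 to 68.2% in vehicle mice (median 48.5%), and these ranges overlapped.

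**Figure D3:**
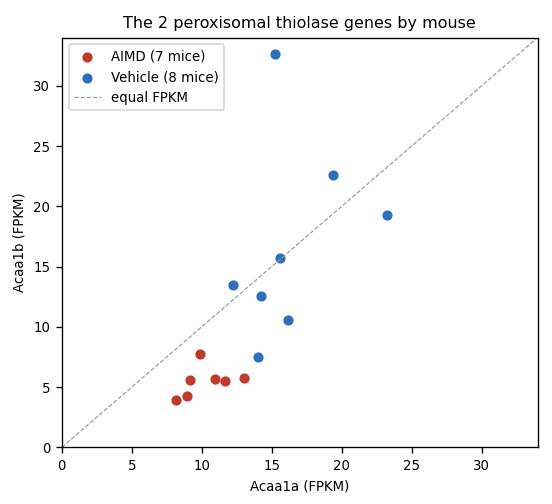
FPKM of Acaa1b against FPKM of Acaa1a, one point for each of the 15 mice, on linear axes, with a dashed line where the 2 values are equal. The 7 AIMD mice sit together at 8.17 to 13.0 FPKM of Acaa1a and 3.94 to 7.77 FPKM of Acaa1b, under the line, while vehicle mice spread up to 32.6 FPKM of Acaa1b on both sides of it.

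The near-identity of the coding sequences did not extend to the promoters. In the RefSeq promoter windows (GRCm38.p6, 250 bases before to 50 after the annotated start), the longest run they share on the same strand is 8 bases. They are printed because both genes fell and the windows are unlike, and neither holds AGGTCA, the hexamer that PPAR and RXR receptors read in pairs. Most windows lack it, since 18.1% of 27025 symbols held it, and sequence outside the windows was not searched. The windows are chr9:119341044-119341343 on the plus strand for Acaa1a and chr9:119157044-119157343 on the minus strand for Acaa1b. The Acaa1a window lies inside the gene as GENCODE bounds it, since shorter GENCODE transcripts begin upstream, and it surrounds the start of the GENCODE transcript that runs to the end of the gene.
Acaa1a promoter: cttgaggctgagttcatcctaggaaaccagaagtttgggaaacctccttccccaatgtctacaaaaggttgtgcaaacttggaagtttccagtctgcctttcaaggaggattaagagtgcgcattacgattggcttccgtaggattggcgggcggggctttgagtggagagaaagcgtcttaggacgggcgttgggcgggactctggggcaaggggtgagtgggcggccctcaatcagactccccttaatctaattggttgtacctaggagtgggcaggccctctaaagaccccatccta
Acaa1b promoter: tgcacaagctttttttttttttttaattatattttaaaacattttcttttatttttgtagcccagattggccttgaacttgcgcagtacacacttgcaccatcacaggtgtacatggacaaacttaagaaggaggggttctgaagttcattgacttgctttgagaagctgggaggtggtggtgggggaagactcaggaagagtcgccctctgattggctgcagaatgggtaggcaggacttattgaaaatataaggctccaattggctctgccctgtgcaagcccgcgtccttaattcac

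Both auxiliary enzymes, which prepare unsaturated chains for β-oxidation, were higher in AIMD mice. Decr2, the peroxisomal dienoyl-CoA reductase (chromosome 17, 26081208 to 26090337), had 21.3 to 33.2 FPKM with a median of 26.2 in AIMD mice and 12.7 to 23.7 FPKM with a median of 17.9 in vehicle mice. Its level was above every vehicle mouse in 6 of 7 AIMD mice, and the change was 0.58 ± 0.14 (adjusted p = 0.00491). Eci2, an enoyl-CoA isomerase found in peroxisomes and mitochondria, had 11.7 to 19.6 FPKM and 8.15 to 16.2 FPKM, with medians of 17.9 and 12.2. Its ranges overlapped more, and the change of 0.43 ± 0.16 (adjusted p = 0.0432) was lost when any one of 10 mice was left out. The carnitine acyltransferases, which pass shortened chains on to mitochondria, did not pass. Crot had 0.38 ± 0.16 (adjusted p = 0.0669), and Crat, which acts on acetyl groups, had -0.17 ± 0.14.

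Catalase, which breaks down hydrogen peroxide (Cat, chromosome 2, 103453849 to 103485160), had 27.7 to 43.4 FPKM in AIMD mice with a median of 33.9, and 34.3 to 56.6 FPKM in vehicle mice with a median of 47.9. In 4 AIMD mice it was under all vehicle mice. The change of -0.39 ± 0.13 (adjusted p = 0.0267) was lost when any one of 5 mice was left out, with adjusted p up to 0.0597.

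The α-oxidation enzyme Phyh was the gene whose groups did not overlap. Phyh is the phytanoyl-CoA hydroxylase that starts the removal of a carbon from methyl-branched chains (ENSMUSG00000026664.7, chromosome 2, 4919019 to 4938730). Its level was 133 to 261 FPKM in AIMD mice with a median of 178, and 305 to 542 FPKM in vehicle mice with a median of 464. Every AIMD mouse was under every vehicle mouse. The mean was 195 ± 45.1 FPKM (SD, n = 7) against 439 ± 89.7 FPKM (SD, n = 8), 2.25 times as much in vehicle mice, and the log2 fold change was -1.17 ± 0.17 (adjusted p = 7.37e-05). No mouse had fewer than 2549 reads on this gene, and no 50-base stretch of it occurred in another gene. The change lay between -1.24 and -1.08 when each mouse was left out in turn.

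Next in the branched-chain pathway, Hacl1, the lyase that follows Phyh, had 0.504 to 0.853 FPKM in AIMD mice and 0.767 to 1.31 FPKM in vehicle mice. Its change of -0.25 ± 0.11 did not pass (adjusted p = 0.0709), and 31.1% of its exon bases also belong to Gm49387 on the same strand. Amacr, the racemase that turns branched chains into the form oxidases accept, had 0.24 ± 0.19 (adjusted p = 0.349). Pecr, the peroxisomal trans-enoyl-CoA reductase (chromosome 1, 72259167 to 72284314), had 2.09 to 2.72 FPKM in AIMD mice with a median of 2.34, and 2.64 to 7.46 FPKM in vehicle mice with a median of 3.55. Only 1 of the 8 vehicle mice was within the AIMD range, and the change was -0.56 ± 0.16 (adjusted p = 0.0115). The lowest mouse had 24 reads on Pecr, and 11.5% of its exon bases lie opposite D230017M19Rik, which did not exceed 0.214 FPKM.

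Ether lipid synthesis starts with Gnpat, Agps and Far1, and these 3 genes did not move together. Gnpat, the acyltransferase of the first step (chromosome 8, 124863033 to 124890057), had 6.20 to 8.90 FPKM in AIMD mice with a median of 8.04, and 4.35 to 7.57 FPKM in vehicle mice with a median of 6.11. It was above all vehicle mice in 5 AIMD mice, and the change was 0.40 ± 0.12 (adjusted p = 0.0152). The 50-base stretches it shares with Gm16163 were 6.37% of its own. Of the exon bases of Gnpat, 2.45% lie opposite 2810004N23Rik, which reached 27.3 FPKM in its highest mouse. Agps, the next enzyme, had 5.38 to 7.15 FPKM and 4.06 to 8.28 FPKM, with a change of -0.01 ± 0.12 (adjusted p = 0.972). Far1, which makes the fatty alcohol that Agps attaches and is held to set the pace of the pathway (chromosome 7, 113513834 to 113571511), had 19.1 to 37.0 FPKM in AIMD mice with a median of 24.9, and 23.7 to 76.9 FPKM in vehicle mice with a median of 51.5. In 6 vehicle mice it was above every AIMD mouse, and its change of -0.91 ± 0.22 (adjusted p = 0.00432) was the next largest fall after those of Acaa1b and Phyh.

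The promoter windows were searched for AGGTCA on both strands. A window was found under the symbol for 28 of the 35 genes, and 4 of them (Cat, Pex11g, Phyh and Scp2, 14.3%) held the hexamer, against 18.1% of 27025 symbols. AGGTCANAGGTCA, the direct repeat with 1 base between, was matched with at most 2 mismatches, on either strand, in Acox2 and Cat (7.14%), against 4.40% of symbols. In Cat the repeat match starts with the hexamer itself, so both searches found the same site there. Acox2 held no exact hexamer. The windows of Phyh and Cat, both of which fell, are shown with the hexamer or its complement in capitals. In Phyh (chr2:4918746-4919045, plus strand) it lies on the opposite strand, from base 36 after the start, and in Cat (chr2:103485104-103485403, minus strand) on the same strand, at -204. A match of letters is a description only and not a binding site.
Phyh promoter: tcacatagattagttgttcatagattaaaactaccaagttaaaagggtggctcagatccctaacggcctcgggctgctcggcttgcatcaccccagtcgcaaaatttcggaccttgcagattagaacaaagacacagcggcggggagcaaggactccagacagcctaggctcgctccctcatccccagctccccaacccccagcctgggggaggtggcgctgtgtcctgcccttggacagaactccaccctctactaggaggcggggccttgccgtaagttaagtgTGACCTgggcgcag
Cat promoter: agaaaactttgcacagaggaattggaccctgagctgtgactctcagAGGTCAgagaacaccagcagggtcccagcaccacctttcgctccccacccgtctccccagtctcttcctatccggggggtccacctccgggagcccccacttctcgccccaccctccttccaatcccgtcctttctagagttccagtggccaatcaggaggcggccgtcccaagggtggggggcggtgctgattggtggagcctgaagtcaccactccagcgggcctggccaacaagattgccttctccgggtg

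Time of sacrifice was a factor in the study's own model, but the labels do not give it. The first principal component of 14 clock genes, centred within groups, stood in for it here. It held 92.2% of their variance and is given in SD units, with Arntl positive. The mice fell into 2 clusters along it: 3 AIMD and 4 vehicle mice lay between 0.76 and 1.15, and 4 AIMD and 4 vehicle mice between -1.37 and -0.57. The positive cluster held AIMD replicates 1 to 3 and vehicle replicates 1 to 4, so the replicate numbers followed the clusters. In the model with group and this axis, 7 of the 34 peroxisomal genes were called on the axis at an adjusted p under 0.05 (limma), all with a positive slope, against 22.9% of all genes called and 13.2% called with a positive slope. The slopes per SD were 0.34 for Pex11g (adjusted p = 0.0188), 0.33 for Pex16 (adjusted p = 0.0359), 0.29 for Pex10 (adjusted p = 0.0259) and 0.28 for Amacr (adjusted p = 0.0142). Those of Decr2, Eci2 and Abcd4 were 0.22 (adjusted p = 0.00787), 0.20 (adjusted p = 0.0419) and 0.19 (adjusted p = 0.0284). Pex16, for example, had a median of 16.0 FPKM in the positive mice and 9.74 FPKM in the negative mice, with ranges of 9.76 to 29.8 and 7.26 to 16.8 FPKM. This count rested on few mice: it was 2 without vehicle replicate 1 and 2 without vehicle replicate 2, 3 without AIMD replicate 2, 4 without AIMD replicate 7, and 10 without vehicle replicate 8. Decr2 and Amacr were called whichever of the 15 mice was left out.

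**Figure D4:**
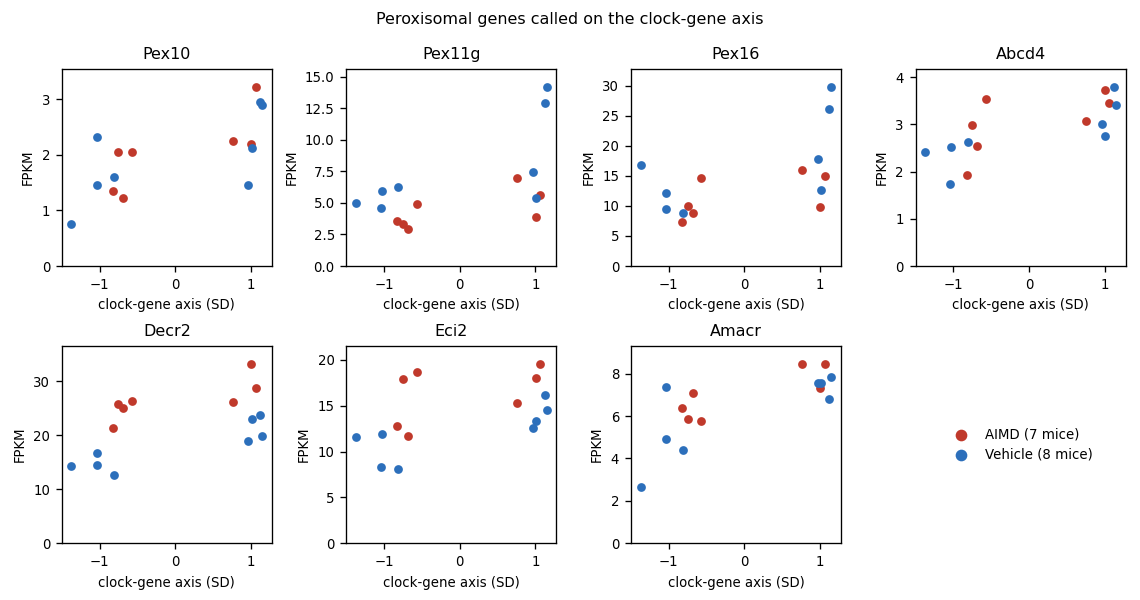
FPKM of the 7 genes called on the clock-gene axis, plotted against the axis in SD units, one point per mouse, red for the 7 AIMD and blue for the 8 vehicle mice, with FPKM axes from 0. In each panel the mice near 1 on the axis lie higher on average than those near -1, and for Decr2 the AIMD mice lie above vehicle mice on both sides.

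With the axis in the model, 22.7% of all genes were higher and 20.0% were lower in AIMD, and all 14 peroxisomal genes named above as higher or lower still passed. Acox3 (adjusted p = 0.0445) and Crot (adjusted p = 0.0411) then also passed as higher, so that 5 enzymes were higher. Differences within the positive and within the negative mice were also taken, a description chosen after the data were seen and made over the mice in which the genes had passed. For Phyh the log2 difference was -0.94 in the positive mice and -1.36 in the negative mice, for Acaa1b -1.41 and -1.40, for Far1 -0.81 and -1.01, and for Decr2 0.45 and 0.74.

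Of 55 other peroxisomal genes, 44 could be tested. Of these 44, 6 were higher (13.6%) and 7 lower (15.9%), beside 19.4% and 16.6% of all genes tested. The median log2 fold change of the 44 was -0.04. The 3 largest rises were those of Xdh, the xanthine dehydrogenase of purine breakdown (0.90 ± 0.16), Isoc1 (0.76 ± 0.15) and Dhrs4, a carbonyl reductase (0.62 ± 0.13). The 3 largest falls were those of Gstk1, a glutathione transferase (-1.24 ± 0.23), the membrane channel protein Pxmp2 (-0.93 ± 0.20) and the thioesterase Acot6 (-0.83 ± 0.15). All 6 had adjusted p values between 0.00051 and 0.00169. Gstk1 was abundant, with 80.8 to 175 FPKM in AIMD mice and 175 to 513 FPKM in vehicle mice.

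Among 6 regulators of peroxisomal genes, 4 were higher in AIMD (66.7%) and none was lower. Of all genes tested, 19.4% were higher and 16.6% lower. Ppara, the receptor that drives peroxisomal β-oxidation genes in liver, had 1.16 to 2.05 FPKM in AIMD mice with a median of 1.57, and 0.649 to 1.35 FPKM in vehicle mice with a median of 1.04 (0.49 ± 0.12, adjusted p = 0.00507). Its partner Rxra had 0.80 ± 0.17 (adjusted p = 0.00202), Pparg had 0.75 ± 0.17 (adjusted p = 0.00331) and the bile acid receptor Nr1h4 had 0.57 ± 0.15 (adjusted p = 0.00818). Ppard and the coactivator Ppargc1a did not pass, with -0.36 ± 0.17 and 0.34 ± 0.16. These are levels of RNA and not of receptor activity.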

How the data were processed

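Cecal poly-A RNA of 15 mice was measured with a kit that marks strand and 50-base single reads. The authors mapped reads to GRCm38 with STAR, counted them with featureCounts and GENCODE annotation, tested with DESeq2 using treatment and time of sacrifice, and deposited FPKM by gene symbol for each mouse. How FPKM were made from counts, and the strand and multiple-match settings, are not given in the sources used here. The deposited table has 45808 lines, of which 4 with repeated symbols were left out and 27 carry a date in place of a symbol.

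FPKM were scaled by size factors from median ratios (1.01 in every mouse) and log2(FPKM + 0.5) was fitted with limma 3.58.1 in R 4.3.3 (lmFit, eBayes with trend), using all 15 mice, group alone and the 11971 genes that reached an FPKM of 0.5 in 7 or more mice. P-values are two-sided and Benjamini-Hochberg adjusted over all these genes, with a threshold of 0.05. Counting intervals were not computed, and depth limits low genes. Whole reads were recovered from the FPKM steps for 100% of 21808 genes above 0 in at least 2 mice (tolerance 0.02 reads), which gave the depths. These depths are not the counts of reads on genes. In vehicle replicate 5 the depth was 5.16e+06, while 6486304 reads fell on genes. In AIMD replicate 6 the values were 1.31e+07 and 11244597. With size factors of 1.01 in every mouse, the deposited values were already on a common scale between mice. Whether the 7 replicate numbers shared by both groups pair the mice was checked by correlation, which showed no clear pairs. That check cannot exclude a shared order or batch, because the replicate numbers also followed the clock-gene clusters. Scripts were tested on simulated data. Alternatives were 2 scalings, 2 pseudocounts, 2 filters, an exact rank-sum test and voom on recovered reads. Others were the replicate number as a block, the clock-gene axis and each mouse left out. Of the 2 scalings, the values as deposited differ from the main ones only by factors of 1.01. Close agreement with the main fit was therefore built into that scaling. Promoters are from RefSeq and gene positions from GENCODE M21, both on GRCm38. The genes named with values are all 35 by role, and of the other lists the 3 largest rises and falls past the threshold and all regulators. These genes and lists were chosen with earlier results of these data known. Where nothing says otherwise the mice are taken as separate animals, and p-values measure the spread between them.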

Additional observations from a re-analysis of the deposited data

Results flagged for a closer look

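In 68 sets of values (34 genes in 2 groups), 4 held a mouse far from the others of its group by Dixon's criterion, and chance alone marks about 1 set in 20. Pex19 was 41.8 FPKM in AIMD replicate 4, with the next AIMD mouse at 33.6 FPKM. Scp2 was 49.0 FPKM in AIMD replicate 1, with the next at 38.4 FPKM. Hacl1 was 1.31 FPKM in vehicle replicate 5, with the next at 0.991 FPKM. Pecr was 7.46 FPKM in vehicle replicate 1, with the next at 4.44 FPKM, and its fall passed with every mouse left out in turn, at an adjusted p of at most 0.0263 (limma).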

How the results depend on the processing

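Of the 14 peroxisomal genes that passed, 10 did so under all 10 alternatives and with each of the 15 mice left out: Pex2, Pex26, Pex5, Decr2, Gnpat, Acaa1a, Acaa1b, Phyh, Pecr and Far1. Cat passed under all 10 alternatives. Among these 10, the values as deposited were close to the main fit by construction. Eci2 and Pex11g were lost with no filter and with the exact rank-sum test, and Pex7 with a pseudocount of 0.1, no filter and the replicate block. Of the 20 others, 5 passed somewhere (Acox3, Crot, Hacl1, Scp2 and Pex11a). Biogenesis factors lower in AIMD numbered 1 in place of 2 with no filter and with the rank-sum test. Enzymes higher numbered 5 in place of 3 with the clock-gene axis. The genes called on that axis numbered 3 in place of 7 with no filter. With single mice left out, biogenesis factors numbered 2 to 3 higher and 1 to 3 lower, enzymes 2 to 4 higher and 5 to 6 lower, and genes called on the axis 2 to 10. The lower biogenesis factor lost in 7 of these runs was Pex11g. The cause of these moves was not tested.

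The replicate numbers gave correlations of -0.35 to 0.43 between same-numbered mice, and 1 of 7 AIMD mice and 2 of 7 vehicle mice correlated best with their own number. With the replicate block, 2 biogenesis factors and 4 enzymes were higher and 2 and 6 were lower. Signs reversed for genes that never passed: Pex10 had -0.040 with the replicate block and -0.039 to 0.180 with single mice left out, Abcd3 had 0.057 with quantile normalization and -0.043 to 0.0028, Ehhadh had -0.17 to 0.023 and Agps -0.084 to 0.047. Depth limits Pex6, Pex10, Pex14, Pex26, Abcd4, Acox2, Hacl1 and Pecr, with 11 to 28 reads in their lowest mouse, and Abcd2.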

Other observations

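Among the other peroxisomal genes, those whose groups did not overlap included Nudt19, Dhrs4 and Acot6. Nudt19, a hydrolase of CoA, had 65.2 to 76.9 FPKM in AIMD mice and 28.2 to 65.1 FPKM in vehicle mice (0.41 ± 0.15, adjusted p = 0.0457, limma). Dhrs4 had 25.5 to 37.7 FPKM in AIMD mice and 14.7 to 25.1 FPKM in vehicle mice, and Acot6 had 0.219 to 0.451 FPKM in AIMD mice and 0.562 to 2.00 FPKM in vehicle mice. The thioesterase Acot8 was lower in AIMD mice (-0.65 ± 0.19, adjusted p = 0.0142). Nudt19 and Acot8 were named here after their values were seen. Genes of the liver peroxisome that were near 0 in the cecum included Hao1, Dao, Agxt, Baat and Uox, each at or under 0.296 FPKM in every mouse.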
